A study of Homo sapiens with 9 samples.

Results

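The genes described here encode the voltage-gated and related ion channels that set the electrical behaviour of nerve cells, measured as RNA in 3 human neuroblastoma cell lines. They are every gene symbol of the deposited table that begins with KCN (potassium channels), with SCN and a digit (sodium channels) or with CACNA, CACNB or CACNG (calcium channels), whether or not the gene was expressed. This rule finds 137 of 19706 usable symbols: 96 potassium channel genes, 14 sodium channel genes, 26 calcium channel genes and the non-coding KCNQ1DN. Neuroblastoma is a childhood tumour of the sympathetic nervous system. Polyadenylated RNA was sequenced from untreated Kelly and BE(2)C cells, in which the oncogene MYCN is amplified, and from untreated SH-SY5Y cells, in which it is not, with 3 libraries a line. BE(2)C and SH-SY5Y are cloned sublines of their parent lines, and each line stands for 1 tumour, so MYCN status and the identity of a line cannot be told apart. The labels do not say whether the libraries of a line came from separate cultures, and p-values therefore reflect the scatter of these libraries alone, possibly technical.

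An ion channel is a membrane pore that opens to voltage, to a ligand or to stretch and lets a chosen ion cross. In a nerve cell, sodium channels start the action potential, potassium channels hold the resting voltage and end the spike, and calcium channels couple the spike to secretion and to gene expression. Pore-forming subunits determine the ion and the gate, while accessory subunits alter trafficking and timing. The hERG channel, encoded by KCNH2, is a classical potassium current of neuroblastoma cells, and N-type calcium channels and tetrodotoxin-sensitive sodium channels are typical of sympathetic neurons.

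Levels are given as scaled TPM, the deposited TPM (transcript abundance corrected for length) brought back from the log scale, re-expressed over genes alone and divided by a trimmed-mean factor per library. TPM corrects for gene length, so levels of different genes can be set side by side, but it keeps no sequencing depth, and the depth of the libraries is unknown. Synthetic spike-in RNA made up 83.7% to 90.6% of the deposited total. Of 61 abundant spike-ins, limma called 49 between Kelly and SH-SY5Y, 53 between Kelly and BE(2)C and 0 between BE(2)C and SH-SY5Y, with largest shifts of 1.42, 1.24 and 0.18 on the log2 scale. Library technique and cell line therefore cannot be told apart in comparisons with Kelly, whether or not this is repeated for a gene below. A Kelly change below 1.42 against SH-SY5Y, or below 1.24 against BE(2)C, is inside the largest spike-in shift. These values set no limit on such shifts in genes, so a larger change is not thereby free of them. Mitochondrial genes took 16.5% to 35.3% of the gene total, most in BE(2)C. MYCN averaged 5970 ± 77.6 scaled TPM in Kelly (SD, n = 3), 6050 ± 1088 in BE(2)C (n = 3) and 27.3 ± 1.01 for SH-SY5Y (n = 3). All 10 markers of sympathetic neuroblasts reached a mean of 1 in Kelly and BE(2)C and 9 did in SH-SY5Y, with summed levels of 6891 to 7806, 5931 to 6066 and 7281 to 7434. The 17 markers of other cell types other than glia summed to at most 13.3 in any list and library, with CD3E, KRT5, ALB, HBB and MYH6 at 0 throughout, and 6 Schwann and glial markers summed to at most 13.35.

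Most channel genes were low in all 3 lines. Fewer cells expressing a gene and less RNA per cell cannot be told apart in these bulk libraries. The highest line mean was under 1 scaled TPM for 52 of the 137 genes, 10 of which were listed at 0 in all 9 libraries, between 1 and 5 for 36, and 5 or more for 49. A mean of 5 was reached in some line by 35.8% of the channel genes and by 56.8% of all symbols, and a mean of 20 by 13.1% and 39.6%. CACNG4, KCNJ8, CACNG7, KCNH2, KCNK3, SCN3B, KCNG1 and CACNA2D1 were the 8 genes with a mean of 50 or more in a line. Of these 49 better expressed genes, KCNRG, KCNT2 and KCNMA1 were called in no comparison.

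**Figure D1:**
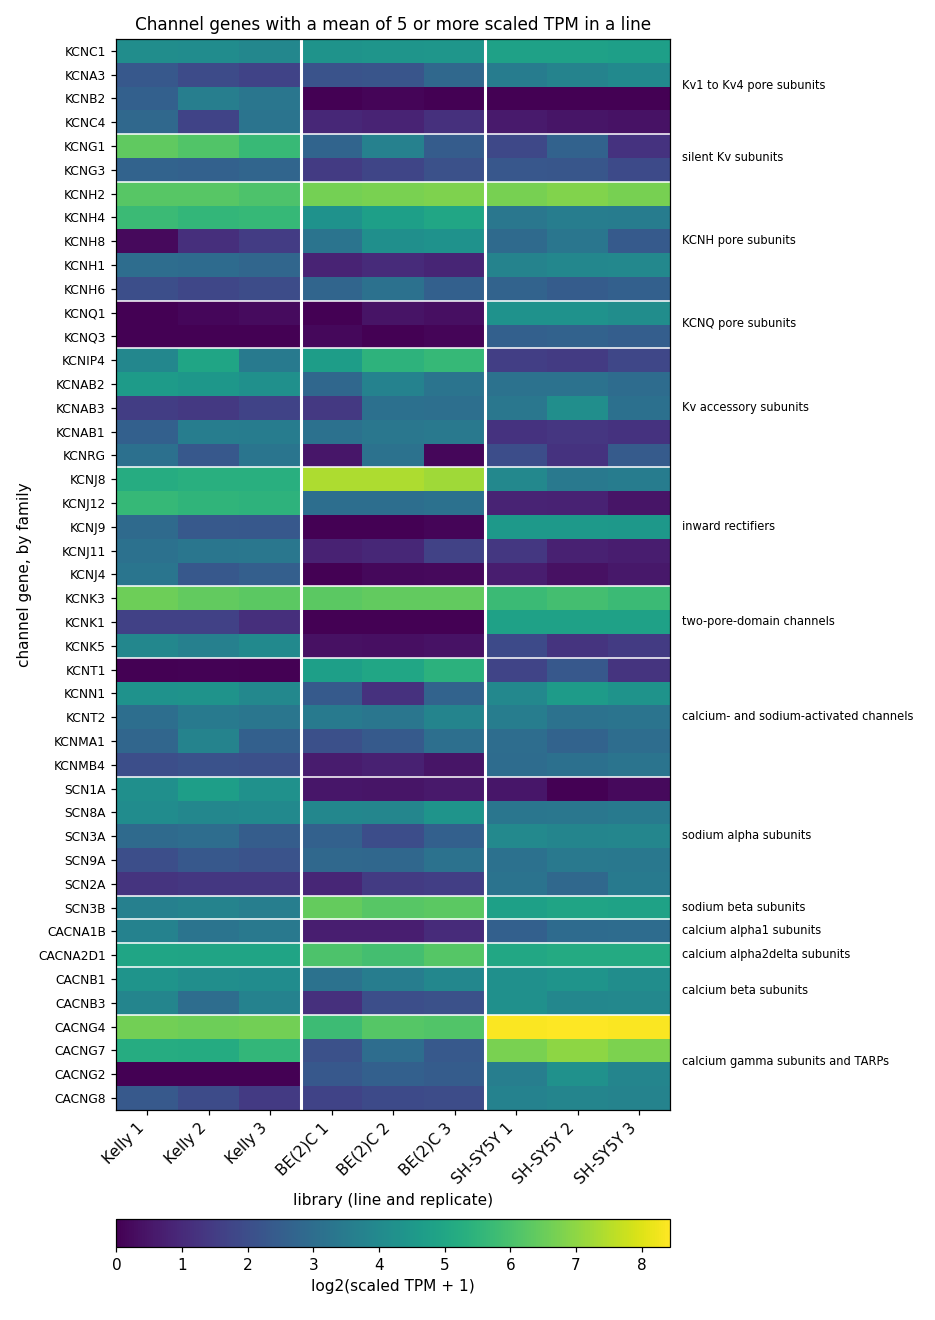
Level of 45 of the 49 channel genes with a mean of 5 or more scaled TPM in a line, as log2(scaled TPM + 1), in each of the 9 libraries (columns, with Kelly, BE(2)C and SH-SY5Y separated by white lines) and grouped by family (rows). The colour runs from 0 to over 8; CACNG4 in SH-SY5Y is the brightest row segment and KCNJ8 in BE(2)C the next.

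A gene was tested where it reached 1 scaled TPM in at least 3 libraries, which 77 channel genes did and 60 did not; no untested gene exceeded 2.93 in any library. The test was limma on log2(scaled TPM + 1) across all 13076 genes that passed, called at an adjusted p under 0.05; the value after ± is the SE of a log2 fold change. A log2 fold change on this scale understates the change of low genes. The spike-in shifts were taken without the added 1, so a low gene can fall inside them for that reason alone. Since a gene can pass through the line in which it is high, the counts below describe the tested genes and not all channel genes.

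Kelly against SH-SY5Y called 31 channel genes higher and 28 lower, with 18 not called, so 76.6% of those tested were called, against 55.3% of all tested genes (28.1% higher and 27.2% lower). The 31 higher genes numbered 19 of 68 tested without Kelly replicate 1, 20 of 66 tested without Kelly replicate 2 and 11 of 41 tested on the values as deposited. The filter asks for 1 scaled TPM in 3 of the libraries kept. A gene that reached it in the 3 libraries of Kelly alone was therefore not tested once 1 of them was left out. Such a gene passed through the line in which it was high, which favours a call. How far the called share of channel genes exceeds the background for this reason was not tested. The median log2 fold change was 0.06 over the channel genes and -0.01 over all tested genes. BE(2)C against SH-SY5Y called 19 higher and 25 lower, with 33 not called, or 57.1% against a background of 59.4% (28.6% higher and 30.7% lower), and the medians were -0.17 and -0.04. The 19 higher genes numbered 9 on the values as deposited, and the 25 lower genes 38 on those values times a constant. Kelly against BE(2)C called 32 higher and 14 lower, with 31 not called, or 59.7% against 52.5% (27.9% higher and 24.6% lower), and the medians were 0.34 and 0.02. The 14 lower genes numbered 9 without BE(2)C replicate 2 (of 73 tested) or 3 (of 74 tested) and 8 with gene totals only, and the 32 higher genes numbered 18 on the values as deposited. The 3 comparisons share libraries and are not independent of each other. The share of channel calls that were higher was 52.5%, 43.2% and 69.6% in these comparisons. Among the calls over all tested genes it was 50.8%, 48.2% and 53.2%. With gene totals as the only scaling, the share was 50.9%, 29.5% and 82.6% of channel calls and 41.5%, 23.6% and 74.3% of all calls. On the values as deposited it was 29.7%, 27.3% and 64.3% of channel calls and 12.1%, 18.2% and 40.1% of all calls. Of 113 calls on genes that met the rule for naming, 8 were lost with gene totals only, and of the 95 that could be refitted on the values as deposited, 3 were lost and 3 changed sign.

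By ion, the potassium channel genes, with 54 of 96 tested, had 26 higher and 16 lower calls in Kelly against SH-SY5Y, 14 and 13 in BE(2)C against SH-SY5Y, and 24 and 8 in Kelly against BE(2)C. The sodium channel genes, with 7 of 14 tested, had 2 higher and 4 lower, 2 and 2, and 1 and 3. The calcium channel genes, with 16 of 26 tested, had 3 higher and 8 lower, 3 and 10, and 7 and 3. Of the tested genes of each ion, these calls made up 77.8%, 50% and 59.3% for potassium, 85.7%, 57.1% and 57.1% for sodium, and 68.8%, 81.2% and 62.5% for calcium, beside the 55.3%, 59.4% and 52.5% of all tested genes given above. Beta and gamma subunit genes made up 6 of the 8 calcium genes lower in Kelly than in SH-SY5Y and 8 of the 10 lower in BE(2)C.

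**Figure D2:**
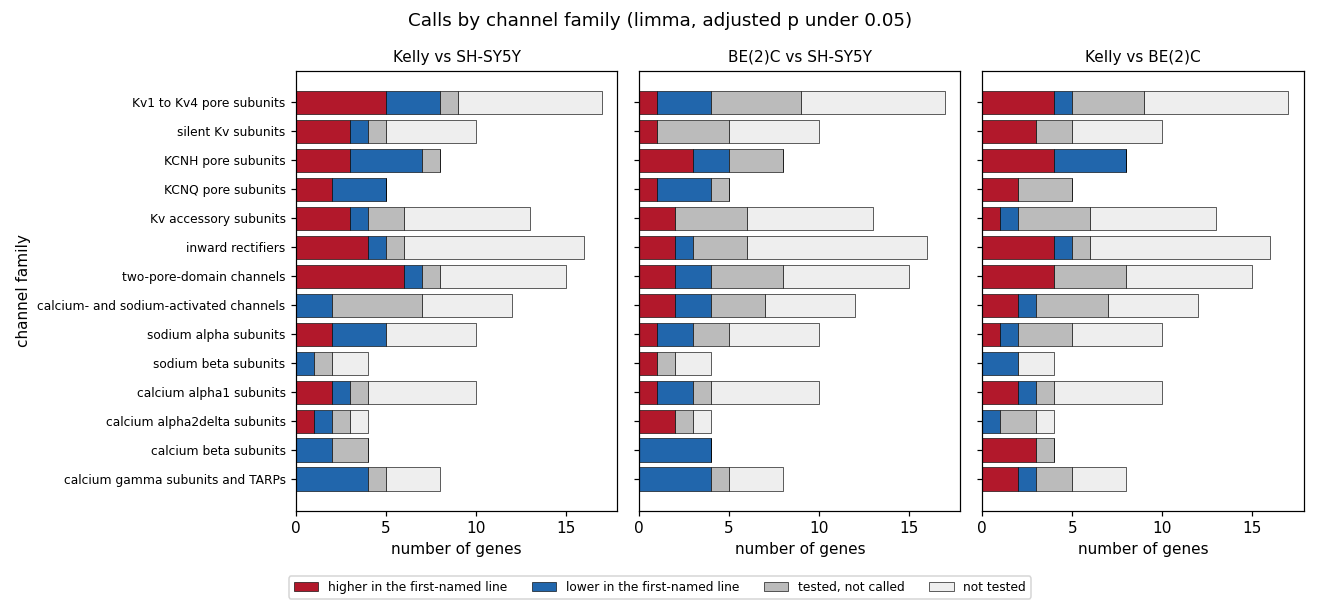
Number of genes in each channel family (bar length, x axis) that limma called higher (red) or lower (blue) in the first-named line, that were tested and not called (grey) or that were too low to be tested (pale), in the 3 comparisons. All 4 calcium beta genes were lower in BE(2)C than in SH-SY5Y, as were 30.7% of all tested genes. No calcium gamma gene was higher in Kelly or BE(2)C than in SH-SY5Y, where 28.1% and 28.6% of all tested genes were.

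The KCNH family, which holds the ether-a-go-go, ERG and ELK channels, was expressed in every line, and all 8 of its genes were tested. KCNH2 (chromosome 7, 150944961 to 150978315, minus strand, GRCh38) encodes the hERG channel, a rapidly inactivating potassium channel that also repolarizes the heart. KCNH2 had 74.3, 74.9 and 66.6 scaled TPM in the Kelly libraries, 99.9, 105 and 109.5 in BE(2)C, against 103, 112 and 103 in SH-SY5Y. The Kelly libraries were all lower than those of the other lines, whose ranges overlapped. Kelly was lower than SH-SY5Y (log2 fold change -0.55 ± 0.07, adjusted p = 0.00019) and than BE(2)C (log2 fold change -0.54 ± 0.07, adjusted p = 0.00026), differences inside the spike-in shift, and the second was not called with gene totals only (adjusted p = 0.0857). BE(2)C was not called against SH-SY5Y (log2 fold change -0.02 ± 0.07, adjusted p = 0.846). KCNH2 alone gave 51.1% of the summed KCNH level in Kelly, 68.0% in BE(2)C, against 73.3% in SH-SY5Y.

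KCNH4 (chromosome 17, 42156891 to 42181278, minus strand) encodes an ELK channel, a slowly gating member of the family found mainly in brain. KCNH4 had 53.1, 46.8 and 48.8 scaled TPM in the Kelly libraries, 18.8, 25.9 and 30.6 in BE(2)C, against 9.22, 10.8 and 10.5 in SH-SY5Y. The lines did not overlap and stood in the order Kelly, BE(2)C, SH-SY5Y. The difference was a log2 fold change of 2.18 for Kelly and one of 1.200 for BE(2)C against SH-SY5Y, and one of 0.98 between Kelly and BE(2)C. Its RefSeq promoter is shown because KCNH4 has the highest level among the 5 tested channel genes with CACGTG in any of their promoters. CACGTG is the E-box hexamer that MYC-family proteins can bind. These 5 differed in their calls against SH-SY5Y: KCNH4 and KCNAB1 were higher in both MYCN-amplified lines, KCNAB2 and KCND2 were higher in Kelly and not called in BE(2)C, and CACNA1B was higher in Kelly and lower in BE(2)C. The window is chr17:42181093-42181392 on the minus strand of GRCh38.p14, 250 bases before to 50 after the start, with the hexamer, 60 bases before the start, in capitals.
KCNH4: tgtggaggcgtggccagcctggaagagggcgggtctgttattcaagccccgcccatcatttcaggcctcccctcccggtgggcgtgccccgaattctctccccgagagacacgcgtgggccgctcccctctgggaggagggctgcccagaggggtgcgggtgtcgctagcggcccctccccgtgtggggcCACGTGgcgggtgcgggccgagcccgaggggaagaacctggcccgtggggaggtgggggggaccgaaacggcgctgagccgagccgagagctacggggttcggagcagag
CACGTG reads the same on both strands. It lay in any promoter of 9 of the 99 channel genes with an entry (9.09%) and of 8.77% of the 27305 genes in the RefSeq promoter set. That set is not limited to the genes measured here, and a match of these letters shows no binding.

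The other KCNH genes were lower and each had its own pattern. KCNH1, an ether-a-go-go channel, had 7.12, 6.76 and 5.92 scaled TPM in Kelly, 0.8004, 1.06 and 0.841 in BE(2)C, against 12.7, 14.04 and 14.4 in SH-SY5Y. SH-SY5Y was highest and BE(2)C lowest without overlap, the difference being a log2 fold change of -2.95 ± 0.16 (adjusted p = 4.35e-07) for BE(2)C and one of -0.95 ± 0.16 (adjusted p = 0.000712) for Kelly, of which the Kelly difference lay within the spike-in shift. KCNH8, an ELK channel, had 0.161, 1.198 and 1.803 in Kelly, 8.53, 17.2 and 18.6 in BE(2)C, against 6.48, 8.82 and 4.28 in SH-SY5Y. Kelly was below both other lines without overlap, by a log2 fold change of -1.92 against SH-SY5Y and one of -2.96 against BE(2)C. BE(2)C was called above SH-SY5Y (log2 fold change 1.04 ± 0.40, adjusted p = 0.0489) although the libraries overlapped, and that call was lost without any 1 of 5 libraries (adjusted p = 0.0602 to 0.155) and under every other setting tried except the replicate block. KCNH6, a close relative of KCNH2, had 3.03, 2.47 and 2.91 in Kelly, 5.65, 7.74 and 4.96 in BE(2)C, against 5.35, 4.52 and 4.998 in SH-SY5Y. Kelly was the lowest line without overlap, at a log2 fold change of -0.65 ± 0.19 (adjusted p = 0.016) against SH-SY5Y, a call lost without Kelly replicate 2 or SH-SY5Y replicate 1 (adjusted p = 0.0529 and 0.0582), and at one of -0.89 against BE(2)C. The remaining KCNH genes were under 5 on average in every line and were added after their values were seen. KCNH3 was highest in Kelly, with 6.95, 2.69 and 3.59, against 0.471, 0.947 and 0.577 in BE(2)C and 0.515, 0.9397 and 0.533 in SH-SY5Y, and KCNH5 was highest in BE(2)C, with 2.37, 1.23 and 1.82. KCNH7, an ERG channel, had 4.75, 4.63 and 3.67 in Kelly, was listed at 0 in all BE(2)C libraries and had 2.86, 2.18 and 2.003 in SH-SY5Y. Over the family, 3 genes were higher and 4 lower in Kelly than in SH-SY5Y, 3 and 2 in BE(2)C than in SH-SY5Y (1 and 3 with gene totals only), and 4 and 4 in Kelly than in BE(2)C. The called share of the 8 genes was 87.5%, 62.5% and 100%, beside 55.3%, 59.4% and 52.5% of all tested genes, so that of BE(2)C against SH-SY5Y was near the background.

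The KCNQ channels carry slow potassium currents. KCNQ3 helps to form the M-current channel that muscarinic receptors close in sympathetic neurons, KCNQ1 works in heart and epithelia, and KCNQ5 contributes to M-type currents in brain. KCNQ3 was listed at 0, 0 and 0 in Kelly, at 0.137, 0 and 0.0773 in BE(2)C and at 4.98, 5.24 and 4.79 in SH-SY5Y. It was called lower in both other lines (adjusted p = 4.78e-07 for Kelly and 5.2e-07 for BE(2)C), and SH-SY5Y was highest without overlap.

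KCNQ1 followed the same order as KCNQ3. KCNQ1 had 0, 0.107 and 0.198 scaled TPM in the Kelly libraries, 0, 0.349 and 0.273 in BE(2)C, against 18.7, 18.7 and 16.6 in SH-SY5Y. The SH-SY5Y libraries stood far above the others, which overlapped, and the differences from SH-SY5Y were a log2 fold change of -4.11 ± 0.18 (adjusted p = 1.39e-07) in Kelly and one of -3.99 ± 0.18 (adjusted p = 1.45e-07) in BE(2)C. KCNQ1 shares exon positions with KCNQ1OT1 and KCNQ1-AS1 on the opposite strand.

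**Figure D3:**
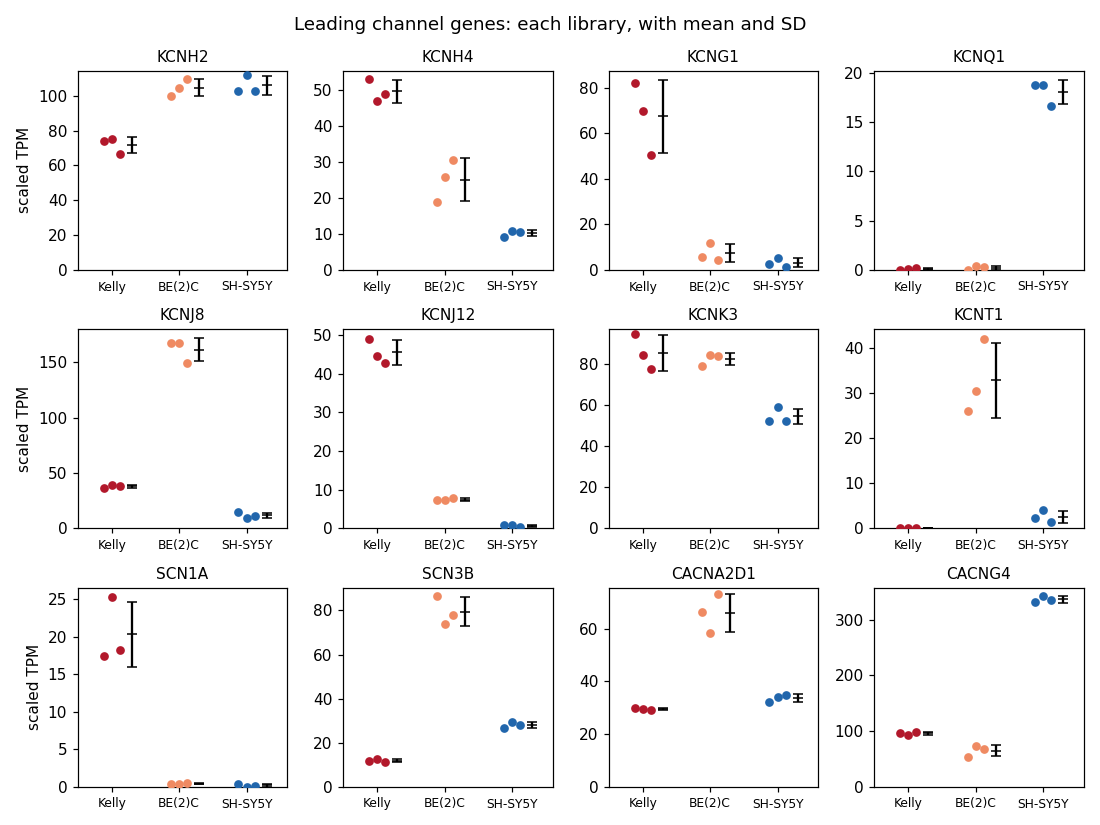
Scaled TPM (y axis, linear from 0) of 12 channel genes in each library (points) of Kelly, BE(2)C and SH-SY5Y, with the mean and SD of each line beside the points (n = 3). KCNH4, KCNJ8, KCNJ12, KCNT1, SCN3B, CACNA2D1 and CACNG4 have 3 separate lines, and KCNH2 is lower in Kelly alone.

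Of the 17 Kv1 to Kv4 genes, which form the classical delayed rectifier and A-type channels, 9 were tested and 3 were listed at 0 in all libraries. KCNC1, a fast Kv3 channel that allows rapid firing, was lower in Kelly and BE(2)C than in SH-SY5Y. KCNC1 had 16.6, 15.99 and 14.01 scaled TPM in the Kelly libraries, 19.2, 19.97 and 20.5 in BE(2)C, against 27.5, 27.3 and 26.2 in SH-SY5Y. All 3 lines were separate, with SH-SY5Y highest, and the difference from SH-SY5Y was a log2 fold change of -0.76 in Kelly and one of -0.42 in BE(2)C. Kelly was also lower than BE(2)C (log2 fold change -0.34 ± 0.11, adjusted p = 0.0233), but not with gene totals only (-0.04, adjusted p = 0.837), nor without Kelly replicate 3, BE(2)C replicate 2 or BE(2)C replicate 3 (adjusted p = 0.0556 to 0.0765). KCNA3, a Kv1 channel best known from T cells, was likewise lower in both, with 4.02, 2.801 and 2.25 in Kelly, 3.46, 3.66 and 6.205 in BE(2)C, against 10.6, 12.5 and 15.2 in SH-SY5Y, at a log2 fold change of -1.78 ± 0.25 (adjusted p = 0.000295) in Kelly and one of -1.36 ± 0.25 (adjusted p = 0.00136) in BE(2)C.

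KCNB2, a delayed rectifier of the Kv2 group, had 4.96, 11.2 and 8.92 in Kelly, 0, 0.07301 and 0 in BE(2)C and was listed at 0 in all 3 SH-SY5Y libraries. KCNC4, an inactivating Kv3 channel, had 6.26, 2.22 and 8.39 in Kelly, 0.917, 0.795 and 1.26 in BE(2)C, against 0.509, 0.3899 and 0.317 in SH-SY5Y, highest in Kelly at a log2 fold change of 2.105 ± 0.35 (adjusted p = 0.000728) against SH-SY5Y. KCND2, which carries A-type current, fell outside the rule for named genes and was picked after its values were seen: it had 1.55, 1.3997 and 1.22 in Kelly and was listed at 0 in the other 6 libraries.

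The silent Kv subunits form no channel alone and alter Kv2 channels when they join them. KCNG1 (chromosome 20, 51003656 to 51023129, minus strand) was the most abundant of these 10 genes in Kelly and BE(2)C, and KCNG3 in SH-SY5Y. KCNG1 had 82.04, 69.8 and 50.5 scaled TPM in the Kelly libraries, 5.52, 11.9 and 4.52 in BE(2)C, against 2.55, 5.21 and 1.37 in SH-SY5Y. Kelly was far above both other lines and BE(2)C overlapped SH-SY5Y. The difference was a log2 fold change of 4.17 ± 0.41 (adjusted p = 2.62e-05) against SH-SY5Y and one of 3.11 ± 0.41 (adjusted p = 0.000196) against BE(2)C, and BE(2)C against SH-SY5Y just missed the threshold (log2 fold change 1.05 ± 0.41, adjusted p = 0.0503). KCNG1 gave 82.5% of the family's summed level in Kelly, which was 63.3 to 99.2, against 11.2 to 18.0 in BE(2)C and 7.79 to 11.8 in SH-SY5Y. KCNG3 had 5.48, 5.16 and 5.66 in Kelly, 1.73, 2.39 and 3.299 in BE(2)C, against 3.87, 3.75 and 2.74 in SH-SY5Y, and was higher in Kelly than in BE(2)C (log2 fold change 0.91 ± 0.21, adjusted p = 0.0049).

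Among 13 genes for Kv accessory subunits, 6 were tested. KCNIP4, a calcium-binding protein that modulates Kv4 channels, led in BE(2)C, while KCNAB2 led in Kelly and KCNAB3 in SH-SY5Y. KCNIP4 had 14.02, 29.9 and 10.1 scaled TPM in the Kelly libraries, 24.6, 42.7 and 49.4 in BE(2)C, against 1.95, 1.77 and 2.504 in SH-SY5Y. Both amplified lines were above SH-SY5Y without overlap, by a log2 fold change of 2.497 ± 0.38 (adjusted p = 0.000432) in Kelly and one of 3.65 ± 0.38 (adjusted p = 3.22e-05) in BE(2)C. Kelly was called lower than BE(2)C (log2 fold change -1.15 ± 0.38, adjusted p = 0.0292) with overlapping libraries, a call lost with gene totals only and without any 1 of 4 libraries (adjusted p = 0.0798 to 0.0977). KCNAB1 and KCNAB2 encode cytoplasmic beta subunits of Kv1 channels. KCNAB1 had 4.94, 10.8 and 10.7 in Kelly, 7.78, 9.22 and 9.57 in BE(2)C, against 1.35, 1.502 and 1.35 in SH-SY5Y, and was higher in Kelly (log2 fold change 1.97) and in BE(2)C (log2 fold change 2.03). KCNAB2 was higher in Kelly, with 23.6, 20.9 and 17.9, than in BE(2)C, with 6.09, 12.4 and 8.57, and SH-SY5Y, with 8.13, 8.01 and 6.97, which overlapped each other. KCNAB3 varied within BE(2)C, with 1.61, 7.66 and 7.39, and was lower in Kelly, with 1.901, 1.63 and 2.26, than in SH-SY5Y, with 9.23, 17.1 and 7.62 (log2 fold change -2.001 ± 0.46, adjusted p = 0.00503). KCNRG, which shares exon positions with TRIM13 on the same strand, had 7.67, 4.04 and 8.57 in Kelly, 0.421, 8.01 and 0.0972 in BE(2)C, against 3.01, 1.34 and 4.33 in SH-SY5Y, and was called in no comparison. None of the KCNE genes, whose products join KCNQ1 and KCNH2, exceeded 2.86 in any library.

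Inward rectifiers pass potassium more easily into the cell than out and stabilize the resting voltage. Of 16 genes, 6 were tested. KCNJ8 (chromosome 12, 21764955 to 21775581, minus strand) encodes Kir6.1, a pore of ATP-sensitive potassium channels. KCNJ8 had 36.3, 38.8 and 38.5 scaled TPM in the Kelly libraries, 167, 167 and 149.6 in BE(2)C, against 14.3, 9.72 and 10.7 in SH-SY5Y. All 3 lines were separate, with BE(2)C highest. The difference was a log2 fold change of 1.64 ± 0.13 (adjusted p = 6.07e-06) for Kelly and one of 3.705 ± 0.13 (adjusted p = 4.31e-08) for BE(2)C against SH-SY5Y, and one of -2.06 for Kelly against BE(2)C. In BE(2)C, KCNJ8 made up 92.4% of the summed level of all inward rectifiers. Its RefSeq promoter is shown because KCNJ8 was the channel gene with the highest level in BE(2)C. The window is chr12:21774657-21774956 on the minus strand of GRCh38.p14, in which neither the E-box hexamer nor TATAAA, the core letters bound by the general initiation machinery, occurred on either strand.
KCNJ8: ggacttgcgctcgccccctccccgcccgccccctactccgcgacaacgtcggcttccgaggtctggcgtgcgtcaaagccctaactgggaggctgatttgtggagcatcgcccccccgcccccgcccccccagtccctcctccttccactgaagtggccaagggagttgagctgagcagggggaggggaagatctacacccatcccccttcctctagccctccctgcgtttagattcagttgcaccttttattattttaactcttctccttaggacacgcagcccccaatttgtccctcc
The channel also needs a sulfonylurea receptor. Its partner ABCC9 had 9.65, 5.39 and 4.99 in Kelly, 16.3, 7.82 and 16.3 in BE(2)C, against 5.898, 4.79 and 4.77 in SH-SY5Y, and BE(2)C was above SH-SY5Y (log2 fold change 1.17 ± 0.31, adjusted p = 0.0098). KCNJ11, the Kir6.2 pore, was highest in Kelly, with 7.89, 8.86 and 9.09, against 0.731, 0.934 and 2.16 in BE(2)C and 1.6003, 0.721 and 0.602 in SH-SY5Y (log2 fold change 2.32 ± 0.27, adjusted p = 8.39e-05 against SH-SY5Y). Its partner ABCC8 had 4.59, 0.524 and 1.85 in Kelly, 0.000966, 0.0604 and 0.000119 in BE(2)C, against 0.658, 1.03 and 0.305 in SH-SY5Y, and was not called between Kelly and SH-SY5Y (adjusted p = 0.112).

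KCNJ12 (chromosome 17, 21376197 to 21419872, plus strand) encodes Kir2.2, a strong inward rectifier. KCNJ12 had 49.1, 44.7 and 42.9 scaled TPM in the Kelly libraries, 7.23, 7.23 and 7.82 in BE(2)C, against 0.7804, 0.744 and 0.3797 in SH-SY5Y. The lines were separate in the order Kelly, BE(2)C, SH-SY5Y, at a log2 fold change of 4.84 ± 0.16 (adjusted p = 3.42e-08) and one of 2.37 ± 0.16 (adjusted p = 2.02e-06) for Kelly and BE(2)C against SH-SY5Y. KCNJ18 is a nearly identical copy, listed at no more than 0.36 in any library, and how reads were divided between the copies is uncertain. KCNJ4, another Kir2 gene, had 8.61, 4.001 and 4.82 in Kelly, 0, 0.127 and 0.154 in BE(2)C, against 0.603, 0.293 and 0.453 in SH-SY5Y, and was higher in Kelly by a log2 fold change of 2.18 against SH-SY5Y. KCNJ9, which encodes a G-protein-gated subunit, was the SH-SY5Y member of the family. KCNJ9 had 6.54, 4.09 and 3.94 scaled TPM in the Kelly libraries, 0, 0 and 0.0765 in BE(2)C, against 22.8, 22.6 and 21.5 in SH-SY5Y. SH-SY5Y was highest and BE(2)C at or near 0, and the differences from SH-SY5Y were a log2 fold change of -2.02 in Kelly and one of -4.51 in BE(2)C.

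Two-pore-domain potassium channels carry the leak current that sets the resting voltage. KCNK3 (chromosome 2, 26692690 to 26733420, plus strand) encodes TASK-1, an acid-sensitive leak channel, and was the highest of 15 genes in every line. KCNK3 had 94.5, 83.9 and 77.2 scaled TPM in the Kelly libraries, 78.7, 84.4 and 83.5 in BE(2)C, against 52.05, 58.7 and 52.2 in SH-SY5Y. Kelly and BE(2)C overlapped, and both were above SH-SY5Y. The calls were a log2 fold change of 0.64 ± 0.09 (adjusted p = 0.000277) in Kelly and one of 0.59 ± 0.09 (adjusted p = 0.000386) in BE(2)C, but neither was called on the values as deposited (-0.06 and 0.02), and that of BE(2)C was not called with gene totals only (0.14). Kelly was not called against BE(2)C (log2 fold change 0.05 ± 0.09, adjusted p = 0.693). KCNK3 gave 75.5%, 90.8% and 60.3% of the summed level of the family in Kelly, BE(2)C and SH-SY5Y.

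KCNK1 (chromosome 1, 233614004 to 233672512, plus strand) encodes TWIK-1, a weak inward rectifier. It had 2.104, 2.096 and 1.18 in Kelly, was listed at 0, 0 and 0 in BE(2)C, and had 26.998, 27.2 and 27.5 in SH-SY5Y. SH-SY5Y was highest, without overlap, and Kelly was lower by a log2 fold change of -3.36 ± 0.18 (adjusted p = 5.52e-07). The promoter is shown because KCNK1 was the best expressed channel gene that was listed at 0 in every library of another line. The window is chr1:233613856-233614155 on the plus strand of GRCh38.p14, and its only match, TATAAA on the opposite strand, 161 bases before the start, is in capitals.
KCNK1: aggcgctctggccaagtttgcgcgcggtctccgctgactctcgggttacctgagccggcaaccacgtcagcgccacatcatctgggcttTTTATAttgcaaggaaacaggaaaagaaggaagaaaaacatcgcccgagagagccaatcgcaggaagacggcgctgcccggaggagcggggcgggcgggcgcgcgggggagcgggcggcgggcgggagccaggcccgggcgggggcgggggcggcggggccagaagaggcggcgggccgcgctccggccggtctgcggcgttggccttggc
TATAAA on either strand lay in any promoter of 11.1% of the channel genes with an entry and of 14.0% of the genes in the RefSeq promoter set. KCNK5 encodes the alkaline-sensitive TASK-2. KCNK5 had 14.1, 11.6 and 14.9 scaled TPM in the Kelly libraries, 0.303, 0.279 and 0.3395 in BE(2)C, against 2.72, 1.397 and 1.75 in SH-SY5Y. Kelly was highest and BE(2)C lowest, with no overlap, at a log2 fold change of 2.32 ± 0.20 (adjusted p = 1.12e-05) for Kelly and one of -1.15 ± 0.20 (adjusted p = 0.000874) for BE(2)C against SH-SY5Y. KCNK10 and KCNK2, of the mechanosensitive TREK group and picked after their values were seen, were also called higher in Kelly than in both other lines. KCNK10 had 4.44, 5.63 and 4.25 in Kelly, 0.886, 1.53 and 1.52 in BE(2)C, against 0.797, 1.26 and 1.81 in SH-SY5Y. KCNK2 had 1.29, 1.26 and 1.75 in Kelly and was listed at 0 in the other 6 libraries. In Kelly 6 of the 8 tested two-pore genes were called higher and 1 lower than in SH-SY5Y. The called share was 87.5%, beside 55.3% of all tested genes (28.1% higher and 27.2% lower). KCNK2, among the 6, passed the filter through its Kelly libraries alone, which favours a call. With the values as deposited times a constant these counts were 2 and 2 of 7 tested.

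The calcium- and sodium-activated potassium channels couple the ion load of a spike to repolarization. KCNT1 (chromosome 9, 135702185 to 135795508, plus strand) encodes a sodium-activated channel, and its level was highest in BE(2)C. KCNT1 had 0, 0.0403 and 0 scaled TPM in the Kelly libraries, 25.98, 30.4 and 41.97 in BE(2)C, against 2.31, 3.95 and 1.41 in SH-SY5Y. The lines did not overlap. BE(2)C was higher than SH-SY5Y by a log2 fold change of 3.28 ± 0.28 (adjusted p = 8.75e-06), and Kelly was lower than SH-SY5Y by one of -1.75 ± 0.28 (adjusted p = 0.000596) and lower than BE(2)C by one of -5.03 ± 0.28 (adjusted p = 9.71e-07). Its paralog KCNT2 had 7.27 to 12.8 in all 9 libraries and was called in no comparison (adjusted p = 0.278 to 0.778). KCNN1, a small-conductance calcium-activated channel, had 18.5, 18.9 and 14.4 in Kelly, 4.22, 1.299 and 5.41 in BE(2)C, against 14.3, 23.5 and 19.01 in SH-SY5Y. The BE(2)C libraries were lowest without overlap, at a log2 fold change of -2.202 ± 0.36 (adjusted p = 0.000588) against SH-SY5Y, while Kelly overlapped SH-SY5Y.

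KCNMA1, the large-conductance BK channel, was among the genes that no comparison called. KCNMA1 had 5.83, 12.7 and 4.93 scaled TPM in the Kelly libraries, 3.19, 4.28 and 7.48 in BE(2)C, against 7.03, 5.47 and 6.99 in SH-SY5Y. All lines overlapped (log2 fold change 0.14, adjusted p = 0.764, in Kelly and -0.38, adjusted p = 0.379, in BE(2)C against SH-SY5Y). Its neuronal accessory subunit KCNMB4 did differ, with 3.06, 3.38 and 3.13 in Kelly, 0.577, 0.719 and 0.404 in BE(2)C, against 6.84, 7.64 and 8.56 in SH-SY5Y. SH-SY5Y was highest and BE(2)C lowest without overlap, at a log2 fold change of -1.05 ± 0.16 (adjusted p = 0.000516) for Kelly and one of -2.47 ± 0.16 (adjusted p = 1.73e-06) for BE(2)C.

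**Figure D4:**
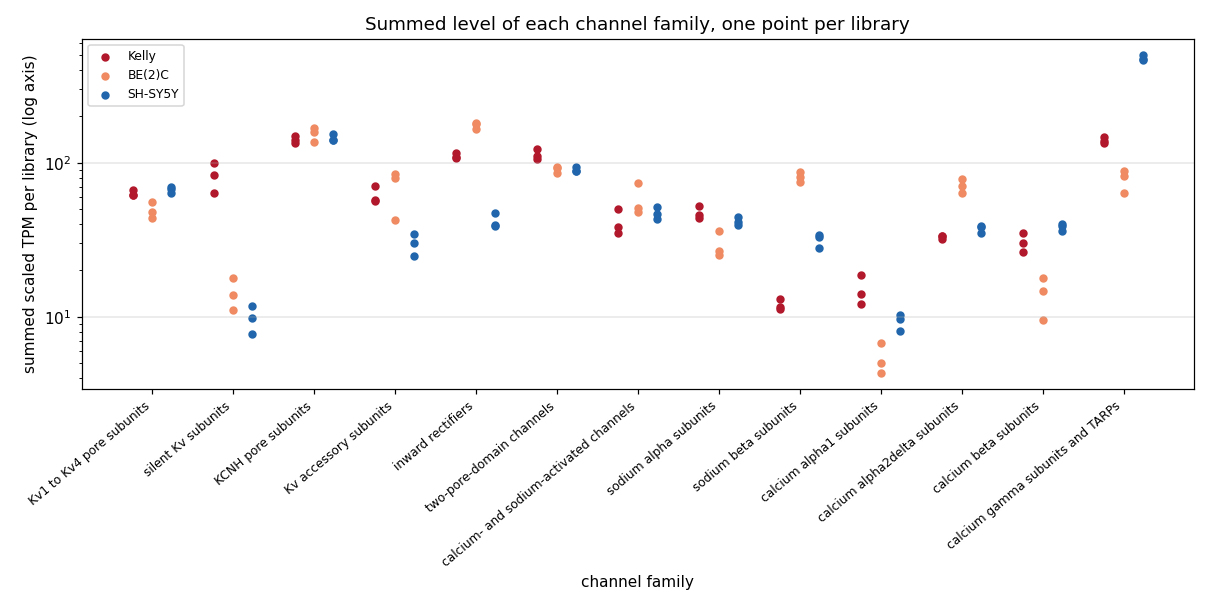
Summed scaled TPM (y axis, log scale) of each channel family but KCNQ (x axis) in each library of Kelly, BE(2)C and SH-SY5Y (1 point per library). The families with the widest spread between lines were the silent Kv, sodium beta and calcium gamma genes; silent Kv sums were 63.3 to 99.2 in Kelly, 11.2 to 18.0 in BE(2)C, against 7.79 to 11.8 in SH-SY5Y.

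The sodium channel alpha subunits form the pore that starts the action potential, and 5 of 10 genes were tested. The gene with the highest level differed between the lines, and the summed levels were 43.7 to 52.1 in Kelly, 25.2 to 36.0 in BE(2)C and 39.4 to 44.6 in SH-SY5Y. SCN1A (chromosome 2, 165984641 to 166149214, minus strand), known for interneurons and for Dravet epilepsy, led in Kelly. SCN1A had 17.4, 25.3 and 18.2 scaled TPM in the Kelly libraries, 0.409, 0.398 and 0.486 in BE(2)C, against 0.436, 0 and 0.159 in SH-SY5Y. Kelly was far above the others, which overlapped, at a log2 fold change of 4.15 ± 0.20 (adjusted p = 3.14e-07) against SH-SY5Y and one of 3.88 ± 0.20 (adjusted p = 7.5e-07) against BE(2)C. SCN3A, a channel of embryonic neurons, led in SH-SY5Y, with 6.51, 6.999 and 4.65 in Kelly, 5.11, 3.02 and 4.97 in BE(2)C, against 14.6, 13.2 and 13.6 in SH-SY5Y. It was lower by a log2 fold change of -1.08 ± 0.22 (adjusted p = 0.00219) in Kelly and one of -1.49 ± 0.22 (adjusted p = 0.000282) in BE(2)C.

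SCN2A, a channel of the axon initial segment, also had its highest values in SH-SY5Y. SCN2A had 1.43, 1.602 and 1.58 scaled TPM in the Kelly libraries, 0.881, 1.74 and 1.96 in BE(2)C, against 8.19, 6.21 and 10.2 in SH-SY5Y. SH-SY5Y did not overlap the other lines, which overlapped each other, at a log2 fold change of -1.84 ± 0.23 (adjusted p = 0.000133) in Kelly and one of -1.87 ± 0.23 (adjusted p = 0.000102) in BE(2)C. SCN9A, the peripheral sodium channel of pain and sympathetic neurons, had 3.09, 4.01 and 3.51 in Kelly, 6.17, 5.97 and 8.06 in BE(2)C, against 7.93, 9.69 and 9.45 in SH-SY5Y. Kelly was the lowest line, at a log2 fold change of -1.14 ± 0.18 (adjusted p = 0.000499) against SH-SY5Y and one of -0.76 ± 0.18 (adjusted p = 0.00552) against BE(2)C, the second lost with gene totals only (adjusted p = 0.0625). BE(2)C overlapped SH-SY5Y and was not called (adjusted p = 0.0931). SCN8A, which carries persistent current at the initial segment, led in BE(2)C. SCN8A had 15.95, 14.1 and 15.1 scaled TPM in the Kelly libraries, 14.03, 13.7 and 19.7 in BE(2)C, against 8.997, 9.18 and 9.87 in SH-SY5Y. It was called higher in Kelly (log2 fold change 0.63 ± 0.16, adjusted p = 0.00823) and BE(2)C (log2 fold change 0.68 ± 0.16, adjusted p = 0.00509) than in SH-SY5Y, but not on the values as deposited (-0.02 and 0.10), and the BE(2)C call was also lost with gene totals only (0.26). SCN4A, SCN7A, SCN10A and SCN11A, best known from muscle, glia and pain neurons, were under 1 in every library.

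Of the 4 sodium beta genes, whose products adjust gating and adhesion, SCN3B (chromosome 11, 123629187 to 123655244, minus strand) gave at least 88.9% of the sum in each line. SCN3B had 11.7, 12.7 and 11.2 scaled TPM in the Kelly libraries, 86.5, 73.7 and 78.1 in BE(2)C, against 26.8, 29.6 and 28.2 in SH-SY5Y. The lines were separate, with BE(2)C highest and Kelly lowest. BE(2)C was higher than SH-SY5Y by a log2 fold change of 1.46 ± 0.10 (adjusted p = 2.15e-06). Kelly was lower than SH-SY5Y by a log2 fold change of -1.19 ± 0.10 (adjusted p = 9.3e-06), inside the spike-in shift. It was lower than BE(2)C by one of -2.64 ± 0.10 (adjusted p = 1.26e-07), larger than any spike-in shift, though technique and line cannot be told apart there either. BE(2)C had the most SCN3B and the lowest summed level of alpha genes.

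Calcium channel alpha1 subunits form the pore, and they were low in these lines, with 4 of 10 genes tested and 1 at a mean of 5. CACNA1B, the N-type channel that triggers transmitter release in sympathetic neurons, had 12.5, 8.53 and 9.62 in Kelly, 0.651, 0.642 and 1.03 in BE(2)C, against 5.02, 6.79 and 6.82 in SH-SY5Y. BE(2)C was lowest without overlap, at a log2 fold change of -2.02 ± 0.20 (adjusted p = 2.61e-05) against SH-SY5Y and one of 2.65 for Kelly over BE(2)C. Kelly was called above SH-SY5Y (log2 fold change 0.63 ± 0.20, adjusted p = 0.0251), but not with gene totals only (adjusted p = 0.0582), with a pseudocount of 0.1 (adjusted p = 0.0627), on the values as deposited (-0.01), or without Kelly replicate 1 or SH-SY5Y replicate 1 (adjusted p = 0.0819 and 0.0996). CACNA1H, a T-type channel that opens near rest, was listed at 0 in all Kelly and SH-SY5Y libraries and had 3.24, 4.38 and 5.13 in BE(2)C (adjusted p = 2.45e-06 against SH-SY5Y). Another T-type gene, CACNA1G, picked after its values were seen, had 1.86, 1.37 and 1.16 in SH-SY5Y and at most 0.04 in the other libraries. The P/Q-type gene CACNA1A was listed at 0 in 8 libraries and at 0.16 in 1 BE(2)C library, and the L-type gene CACNA1C had 0.359, 1.57 and 0.612 in Kelly, 0.0963, 0.0314 and 0 in BE(2)C, against 0.282, 0.646 and 0.534 in SH-SY5Y. CACNA1D, the other neuronal L-type gene, also picked after its values were seen, had 5.79, 3.63 and 1.65 in Kelly, 0.00417, 0 and 0 in BE(2)C, against 0.446, 0.934 and 0.775 in SH-SY5Y.

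The alpha2delta subunits bring calcium channels to the membrane and bind gabapentin. CACNA2D1 (chromosome 7, 81946444 to 82443798, minus strand) exceeded every calcium alpha1 gene. CACNA2D1 had 30.04, 29.3 and 29.01 scaled TPM in the Kelly libraries, 66.3, 58.4 and 73.05 in BE(2)C, against 32.02, 34.2 and 34.7 in SH-SY5Y. BE(2)C was highest without overlap, at a log2 fold change of 0.94 ± 0.10 (adjusted p = 2.7e-05) against SH-SY5Y and one of -1.13 for Kelly against BE(2)C, and Kelly was not called against SH-SY5Y (log2 fold change -0.19 ± 0.10, adjusted p = 0.13). CACNA2D2 had 2.44, 1.53 and 2.54 in Kelly, 2.501, 3.101 and 4.11 in BE(2)C, against 3.14, 4.46 and 3.59 in SH-SY5Y. It was called lower in Kelly than in SH-SY5Y (log2 fold change -0.58 ± 0.22, adjusted p = 0.0465), a call lost without any 1 of 7 libraries (adjusted p = 0.055 to 0.156), with no filter, with a smaller pseudocount and with a block for the replicate number (adjusted p = 0.0673). CACNA2D3 had 0.901, 2.7005 and 0.567 in Kelly and 1.82, 1.601 and 1.36 in BE(2)C, and was listed at 0 in all SH-SY5Y libraries.

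The beta subunits sit on the inner face of the pore and promote its surface expression. All 4 genes were tested and all 4 were lower in BE(2)C than in SH-SY5Y, as were 30.7% of all tested genes. The 4 calls stood with gene totals only and on the deposited values times a constant. These settings moved the median of all tested genes to -0.44 and -0.55, the same direction, and so are a weak check. The call of CACNB2 was lost without BE(2)C replicate 1 (adjusted p = 0.0617). CACNB1 had 19.6, 16.9 and 15.96 in Kelly, 8.07, 10.8 and 13.8 in BE(2)C, against 17.6, 19.7 and 16.4 in SH-SY5Y (log2 fold change -0.70 ± 0.19, adjusted p = 0.0102 for BE(2)C). Kelly overlapped SH-SY5Y and was called above BE(2)C (log2 fold change 0.66 ± 0.19, adjusted p = 0.015), a call lost without Kelly replicate 1 (adjusted p = 0.0513). CACNB3, the main beta subunit of N-type channels, had 13.3, 7.08 and 12.2 in Kelly, 1.23, 3.08 and 3.28 in BE(2)C, against 17.8, 13.996 and 14.3 in SH-SY5Y. Its libraries in BE(2)C were lowest without overlap, at a log2 fold change of -2.26 ± 0.30 (adjusted p = 0.000173) against SH-SY5Y. The beta genes lower in Kelly than in SH-SY5Y were CACNB2 and CACNB4, both under 5 and picked after their values were seen. CACNB2 had 0.6504, 0.847 and 0.303 in Kelly, 0.233, 0.705 and 0.6696 in BE(2)C, against 1.28, 1.26 and 2.03 in SH-SY5Y. Its Kelly call (log2 fold change -0.66 ± 0.21, adjusted p = 0.0256) was lost without Kelly replicate 1 or 3 (adjusted p = 0.051 and 0.0993) and with a pseudocount of 0.1 (adjusted p = 0.0509). CACNB4 had 1.35, 1.44 and 1.84 in Kelly, 0.0285, 0.0656 and 0.07996 in BE(2)C, against 3.58, 3.94 and 3.05 in SH-SY5Y, at a log2 fold change of -0.83 in Kelly and one of -2.09 in BE(2)C. The summed beta level was 26.3 to 34.9 in Kelly, 9.57 to 17.8 in BE(2)C and 35.8 to 40.3 in SH-SY5Y, and N-type CACNA1B was lowest in BE(2)C as well.

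The gamma genes encode small membrane proteins, of which several, the TARPs, serve AMPA-type glutamate receptors more than calcium channels. CACNG4 (chromosome 17, 66964910 to 67033398, plus strand) encodes the TARP gamma-4 and had the highest level of any channel gene in any library. CACNG4 had 97.4, 92.7 and 98.3 scaled TPM in the Kelly libraries, 54.02, 72.8 and 68.8 in BE(2)C, against 332, 343 and 335 in SH-SY5Y. SH-SY5Y was highest and BE(2)C lowest, with no overlap. The difference from SH-SY5Y was a log2 fold change of -1.798 ± 0.10 (adjusted p = 7.29e-07) in Kelly and one of -2.36 ± 0.10 (adjusted p = 1.26e-07) in BE(2)C, and Kelly was above BE(2)C by one of 0.56, inside the spike-in shift. CACNG7 (chromosome 19, 53909335 to 53943941, plus strand), the TARP gamma-7, had the same order. CACNG7 had 35.99, 35.5 and 46.3 scaled TPM in the Kelly libraries, 3.303, 7.005 and 4.15 in BE(2)C, against 106, 125 and 107 in SH-SY5Y. It was lower by a log2 fold change of -1.502 ± 0.22 (adjusted p = 0.000318) in Kelly and one of -4.33 ± 0.22 (adjusted p = 3.07e-07) in BE(2)C.

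CACNG2, which encodes stargazin, was listed at 0 in all 3 Kelly libraries and had 4.01, 5.05 and 4.41 in BE(2)C, against 11.3, 18.04 and 13.2 in SH-SY5Y, lower in BE(2)C by a log2 fold change of -1.45 ± 0.20 (adjusted p = 0.000181). CACNG8, the TARP gamma-8, had 4.16, 2.77 and 1.72 in Kelly, 2.21, 2.69 and 2.87 in BE(2)C, against 12.3, 13.4 and 12.8 in SH-SY5Y. Kelly and BE(2)C overlapped, and both were lower than SH-SY5Y, at a log2 fold change of -1.88 ± 0.23 (adjusted p = 0.000123) and one of -1.95 ± 0.23 (adjusted p = 8.35e-05). Among 5 gamma genes tested, these 4 were lower in both lines, and CACNG5 was called in no comparison. Of all tested genes, 27.2% were lower in Kelly and 30.7% in BE(2)C than in SH-SY5Y. The gamma counts were the same with gene totals only, which moved the median of all tested genes to -0.13 in Kelly and -0.44 in BE(2)C. The summed gamma level was 133.2 to 147.0 in Kelly, 64.1 to 88.1 in BE(2)C and 463.4 to 501.1 in SH-SY5Y, which made it the largest family sum in SH-SY5Y.

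**Figure D5:**
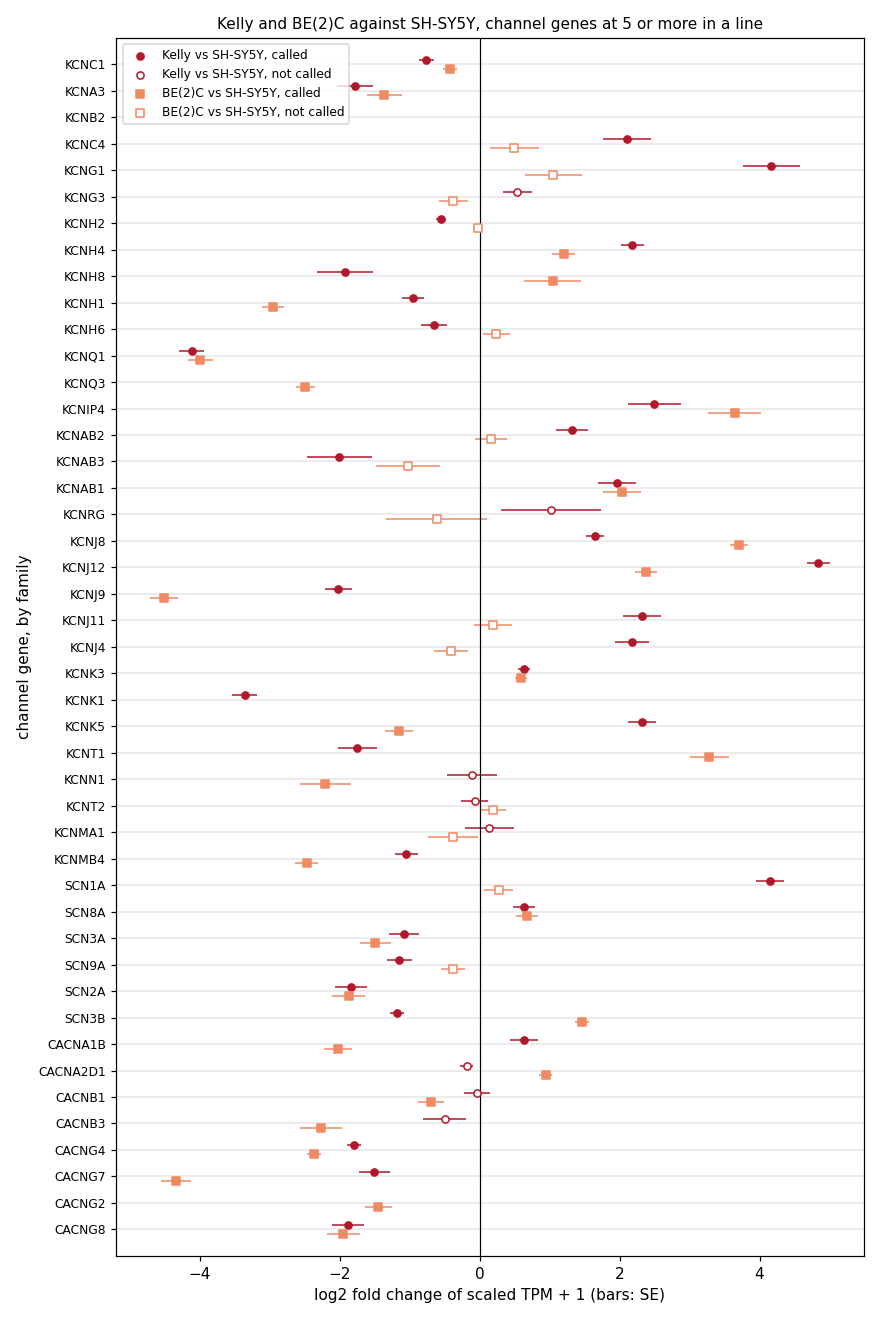
Log2 fold change of scaled TPM + 1 (x axis) with its SE for Kelly (circles) and BE(2)C (squares) against SH-SY5Y, for 45 of the 49 channel genes with a mean of 5 or more in a line (rows). Filled symbols were called, and no symbol is drawn where a line was listed at 0 in all libraries; KCNJ12, KCNG1 and SCN1A lie over 4 in Kelly, and CACNG7 and KCNJ9 lie below -4 in BE(2)C.

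A list of 60 genes that work with these channels, written from general knowledge of the field with earlier results of these data known, gave the setting. Of the 51 tested, 16 were higher and 17 lower in Kelly than in SH-SY5Y (median -0.03), 17 and 16 in BE(2)C than in SH-SY5Y (median -0.09), and 14 and 15 in Kelly than in BE(2)C (median -0.04). The called shares of 64.7%, 64.7% and 56.9% were near those of all tested genes, 55.3%, 59.4% and 52.5%. Among Kv4 partners, DPP6 had 85.2, 75.6 and 81.7 in Kelly, 28.6, 31.2 and 31.4 in BE(2)C, against 20.3, 19.4 and 18.8 in SH-SY5Y, higher in Kelly by a log2 fold change of 1.997 and in BE(2)C by one of 0.62. DPP10, the related Kv4 partner, was called lower in both, with 0, 0 and 0.0638 in Kelly and 0 in all BE(2)C libraries, against 6.504, 5.22 and 3.83 in SH-SY5Y. STAC, an adaptor of L-type calcium channels, had 138, 151 and 154 in Kelly, 83.8, 64.1 and 73.5 in BE(2)C, against 22.9, 21.3 and 19.7 in SH-SY5Y. GEM, a small GTPase that inhibits calcium channels through the beta subunit, had 59.1, 48.7 and 56.02 in Kelly, 10.1, 7.94 and 9.24 in BE(2)C, against 5.25, 5.404 and 6.12 in SH-SY5Y. STAC was higher by a log2 fold change of 2.74 in Kelly and one of 1.74 in BE(2)C, and GEM by one of 3.08 and one of 0.61. Other genes of this group went the other way. STAC2 had 5.04, 3.09 and 2.96 in Kelly, 1.46, 1.87 and 3.65 in BE(2)C, against 11.2, 11.8 and 8.001 in SH-SY5Y, lower by a log2 fold change of -1.28 in Kelly and one of -1.81 in BE(2)C. REM2, a relative of GEM, had 2.15, 2.49 and 2.17 in Kelly, 0.237, 0.7405 and 0.405 in BE(2)C, against 3.07, 3.39 and 3.17 in SH-SY5Y, and was lower in BE(2)C by a log2 fold change of -1.54.

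The sodium pump restores the gradients that these channels spend. Its glial and neuronal beta-2 subunit ATP1B2 was lower in Kelly and BE(2)C than in SH-SY5Y, with 0.393, 0.254 and 0.2203 in Kelly, 0.217, 0.332 and 0.101 in BE(2)C, against 15.95, 16.8 and 17.996 in SH-SY5Y. REST, the repressor that silences many neuronal channel genes in other cells, had 1.68, 2.46 and 1.99 in Kelly, 0.593, 0.766 and 0.666 in BE(2)C, against 24.8, 23.3 and 26.9 in SH-SY5Y. It was lower by a log2 fold change of -3.100 ± 0.17 (adjusted p = 5.23e-07) in Kelly and one of -3.96 ± 0.17 (adjusted p = 1.18e-07) in BE(2)C, and whether it bears on any channel gene was not tested.

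Reads from genes that overlap on opposite strands cannot be told apart here, as no source gives a strand setting. Among the genes described above this concerns KCNG1, KCNH1, KCNH3, KCNH7, KCNQ1, KCNIP4, KCNAB1, KCNAB2, KCNJ4, KCNJ8, KCNK10, KCNMA1, SCN1A, SCN3A, SCN8A, SCN9A, CACNA1B, CACNA1C, CACNA1D, CACNA1G, CACNA1H, CACNA2D2, CACNA2D3, CACNB1, CACNB2, CACNB4 and CACNG4, each of which shares exon positions with an opposite-strand gene in GENCODE release 29.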

How the data were processed

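Per the labels' protocols, polyadenylated RNA was extracted with Trizol at partial confluence and prepared with a NEBNext Ultra kit. HISAT 0.1.6, Salmon 0.3.2 and GRCh38 appear, without roles, in the submitters' processing notes. How transcript values became gene values, and any strand setting, are not stated by any source used here. The deposited values are on a log10 scale and, from the values, log10(TPM + 1), where back-transformed totals were 966592 to 980009 per library. Of 19837 entries, 92 spike-ins and 11 markers were left out of the gene totals, and 28 date-like names counted towards the totals but were not tested. Gene values as TPM over genes alone were divided by an unweighted trimmed-mean factor (30% of log ratios and 5% of levels trimmed, genes at 1 or more in both libraries). limma 3.58.1 (R 4.3.3) was run with its trend method on log2(scaled TPM + 1), all 9 libraries in 1 fit without a block and for genes reaching 1 in 3 libraries, with Benjamini-Hochberg adjustment, two-sided. It was also run on simulated data with planted changes and no technical shift between lines. That run cannot show how such a shift affects the calls. Depth is unknown, so no counting interval is given. Coordinates are from GENCODE release 29 and promoters from RefSeq (GRCh38.p14), where 99 of the 137 genes had an entry. Genes were named where a line mean reached 5 scaled TPM, together with 15 channel genes named whatever their value, and exceptions are marked. The members, partner list, markers and named genes were chosen with earlier results of these data known. Unused value columns numbered 0. A few genes, and results that need them, are not reported here.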

Additional observations from a re-analysis of the deposited data

How the results depend on the processing

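Alternatives were gene totals as the only scaling, the values as deposited, a pseudocount of 0.1, no filter, a replicate block and leaving out each library; the deposited values times a constant were added after seeing the data. These moved the median of all tested genes: to -0.13, -0.44 and 0.31 (log2; Kelly against SH-SY5Y, BE(2)C against SH-SY5Y, Kelly against BE(2)C) with gene totals only, to -0.55, -0.44 and -0.09 on the values as deposited and to -0.66, -0.55 and -0.09 times a constant. Calls of single genes therefore depend least on the scaling where the change exceeds these shifts. Comparisons with Kelly keep the further limit of the spike-ins given above.

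On the values as deposited, where only 41 channel genes passed the filter, the genes higher than in SH-SY5Y numbered 11 in Kelly and 9 in BE(2)C, and those higher in Kelly than in BE(2)C numbered 18. Times a constant, 38 genes were lower in BE(2)C than in SH-SY5Y. With gene totals only, 8 were lower in Kelly than in BE(2)C. Leaving out 1 library gave 19 to 31 genes higher and 22 to 28 lower in Kelly than in SH-SY5Y (19 without Kelly replicate 1 and 20 without Kelly replicate 2). It gave 15 to 19 higher and 21 to 26 lower in BE(2)C than in SH-SY5Y, and 22 to 34 higher and 9 to 15 lower in Kelly than in BE(2)C, where 9 came without BE(2)C replicate 2 or 3. Channel genes tested numbered 68, 66 and 67 without Kelly replicate 1, 2 and 3, and 73 and 74 without BE(2)C replicate 2 and 3, against 77 with all libraries. A gene that reached 1 scaled TPM in the 3 libraries of 1 line alone could not pass the filter without 1 of them. Other causes of the changed counts were not tested.

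Some small changes turned sign. On the values as deposited and times a constant, Kelly against SH-SY5Y gave -0.006 and -0.005 for CACNA1B, -0.062 and -0.068 for KCNK3, -0.018 and -0.027 for SCN8A and -0.237 and -0.48 for KCNMA1, which ran from -0.229 (without Kelly replicate 2) to 0.373 when 1 library was left out. KCNK3 in Kelly against BE(2)C was -0.084 and -0.092, and -0.029 (without Kelly replicate 1) to 0.115 when 1 library was left out. SCN8A in Kelly against BE(2)C was 0.253 with gene totals only and ran from -0.138 to 0.11 (without BE(2)C replicate 3) when 1 library was left out. KCNH2 in BE(2)C against SH-SY5Y was -0.051 to 0.022 when 1 library was left out, above 0 without BE(2)C replicate 1 or SH-SY5Y replicate 2. Of 113 called gene results, 3 were lost with a pseudocount of 0.1, 2 with no filter, 7 without some library, and 3 were lost and 3 turned times a constant. With 1 library left out, 957 refits of these results kept the call and 24 lost it. A gene that no longer passed the filter without a library was not refitted there and does not count as lost.

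The replicate numbers gave no sign of pairing: deviations of same-numbered libraries correlated at -0.054 to 0.027 and those of others at -0.038 to 0.041. With the replicate block, Kelly against SH-SY5Y had 29 channel genes higher and 27 lower, BE(2)C against SH-SY5Y 20 and 26, and Kelly against BE(2)C 32 and 14, and 1 called gene result was lost. As depth is unknown, how well a level under 1 was measured cannot be given.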
